A study of Mus musculus with 3 samples.

Results

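S100 proteins and annexins are 2 families of calcium-binding proteins, and 10 of their genes were followed here from the bone marrow into the inflamed spinal cord. The genes were taken from a list of names: S100a1, S100a4, S100a6, S100a8, S100a9, S100a10 and S100a11, and Anxa1, Anxa2 and Anxa5. All 10 were among the 22238 genes measured in all 3 libraries of the study. Summed over the 10 genes, monocytes of the bone marrow (marrow monocytes) had 17830 TPM, a level per transcript length with an equal total in every library, against 6793 in monocytes of the spinal cord (cord monocytes) and 5686 in monocyte-derived antigen-presenting cells (APCs). S100a8 and S100a9, which encode the subunits of calprotectin, held 6715 of the TPM in marrow monocytes and 1023 in cord monocytes. S100a11 was the most abundant of the 10 genes in both spinal cord populations, at 2179 and 2324 TPM.

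S100 proteins are small proteins that bind calcium through EF hands and then expose a surface that grips target proteins. S100A8 and S100A9 fill the cytosol of neutrophils and monocytes, and once released they bind pattern recognition receptors and withhold metal ions from microbes. Annexins bind acidic phospholipids of membranes when calcium is present, and several of them are gripped by an S100 partner, the best known complex being that of S100A10 with annexin A2. In experimental autoimmune encephalomyelitis (EAE), a mouse model of multiple sclerosis, monocytes leave the bone marrow, enter the spinal cord and there become APCs.

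The data were 1 RNA-Seq library per population, each made from cells pooled over female wild-type (WT) C57BL/6J mice of 10 to 12 weeks, sorted 14 to 15 days after EAE was induced. All mice had been given MOG peptide in complete Freund's adjuvant and 250 ng of pertussis toxin at 2 and 24 hours, so no population came from healthy animals. Marrow monocytes were CD45+ CD11b+ Ly6Chi Ly6G- CD11c- cells from 13 mice in 2 experiments. Cord monocytes were CD45+ CD11b+ CD64+ Ly6Chi Ly6G- cells, and APCs were CD45+ CD11b+ CD64+ Ly6Clow/- Ly6G- cells. Both were sorted from the spinal cords of the same 18 mice in 3 experiments, so the cord libraries share animals. CD64 was part of the spinal cord gates only, and CD11c of the bone marrow gate only. Spinal cords were digested with enzymes and passed through a density gradient, whereas marrow cells were flushed out and enriched with a monocyte isolation kit. Cell preparation thus differed along with tissue, and the 2 cannot be told apart. The source field of the APC library named bone marrow, whereas its title, its tissue field and the study design named spinal cord, which was used here.

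The libraries held 27283795 to 33280643 estimated reads. With 1 library per population no difference had a replicate check and none was tested, and all intervals below cover counting error only, which PCR copies can make too narrow. TPM was rescaled over the common genes, and its 95% interval is a Wilson interval of the gene's share of reads. Fold changes were taken from reads scaled by size factors and are given with a 98% interval. A gene was called higher or lower where the whole of that interval was past a 2-fold change, provided that either library had over 3 TPM. Fewer cells that express a gene and less RNA of it per cell cannot be told apart in such pools. Among the markers of the sorted cells, the summed TPM of 6 monocyte genes was 10230, 8832 and 3244 in marrow monocytes, cord monocytes and APCs, and that of 5 APC genes was 630.9, 4698 and 11210. Genes of other cells were present as well: the summed TPM of 8 microglia markers was 13, 110.8 and 286.1, that of 10 lymphocyte markers 4.285, 37.27 and 53.32, that of 7 endothelial markers 17.46, 78.9 and 48.37, that of 11 glia and neuron markers 75.44, 58.5 and 58.76, and that of 6 dendritic cell markers 41.12, 21.89 and 32.04.

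Of the 10 genes, 8 lie on chromosome 3 (GENCODE M21, GRCm38). S100a1 lies at chr3:90511034-90514392 on the minus strand, and S100a4, S100a6 and S100a8 follow on the plus strand at chr3:90603771-90606045, chr3:90612882-90624181 and chr3:90668978-90670035. S100a9 lies at chr3:90692632-90695721 on the minus strand. S100a11, at chr3:93520488-93526287, and S100a10, at chr3:93555080-93564643, lie together further along the plus strand. Anxa5, at chr3:36448923-36475894 on the minus strand, is far from this cluster, and Anxa1 and Anxa2 lie at chr19:20373428-20390944 (minus) and chr9:69453620-69491795 (plus). Not all genes of the cluster had more than a few reads. S100a3, S100a5, S100a14 and S100a7a, which lie among the expressed genes, had 4 reads or fewer in every library. S100a2, in the same stretch, had 2 reads in marrow monocytes, 5 in cord monocytes and 0 in APCs.

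Promoters are printed for 4 genes of the cluster, because S100a8, S100a9 and S100a4 were called lower in cord than in marrow monocytes whereas S100a11 had a fold change near 0. The 250 bases before the RefSeq start (GRCm38.p6) were searched on both strands for motifs spelled out here. The TATA box was TATAAA. The C/EBP motif was TTGCNNAA, where N is any base. The PU.1 motif was GAGGAAG. The AP-1 motif was TGANTCA. The printed part ends where the GENCODE gene begins, it runs 5′ to 3′ along the gene, and capitals mark a match.
S100a8, chr3:90668821-90668977, plus strand: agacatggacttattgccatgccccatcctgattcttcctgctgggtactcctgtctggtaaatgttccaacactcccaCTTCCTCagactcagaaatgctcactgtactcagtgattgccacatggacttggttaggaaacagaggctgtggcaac
S100a9, chr3:90695722-90695971, minus strand: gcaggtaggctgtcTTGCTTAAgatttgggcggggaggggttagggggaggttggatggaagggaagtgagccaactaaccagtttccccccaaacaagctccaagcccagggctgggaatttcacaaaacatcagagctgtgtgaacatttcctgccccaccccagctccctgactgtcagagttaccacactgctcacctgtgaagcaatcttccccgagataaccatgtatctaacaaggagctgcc
S100a4, chr3:90603520-90603769, plus strand: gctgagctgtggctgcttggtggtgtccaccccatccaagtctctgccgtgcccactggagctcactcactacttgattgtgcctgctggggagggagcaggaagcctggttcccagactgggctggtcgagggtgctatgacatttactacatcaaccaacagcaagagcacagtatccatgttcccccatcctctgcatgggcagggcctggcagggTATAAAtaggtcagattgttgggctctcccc
S100a11, chr3:93520246-93520487, plus strand: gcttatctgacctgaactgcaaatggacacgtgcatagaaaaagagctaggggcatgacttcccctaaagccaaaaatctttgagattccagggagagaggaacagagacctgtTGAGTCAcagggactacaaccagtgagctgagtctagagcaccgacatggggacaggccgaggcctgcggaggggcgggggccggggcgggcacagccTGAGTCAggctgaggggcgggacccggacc
The capitals in S100a8 are the PU.1 letters on the other strand, 171 bases before the start, and S100a8 also held TATAAA 30 bases before the start, past the printed part. Those in S100a9 are the C/EBP letters at 236 bases, those in S100a4 the TATA box at 31 bases, and those in S100a11 the AP-1 letters at 136 and 38 bases. Of the 9 genes with a promoter entry, Anxa1 held TATAAA at 32 and TTGCNNAA at 143 bases, and Anxa2 held TATAAA at 17 and TGANTCA at 95 bases. All 250 bases searched for Anxa1 lie inside the GENCODE gene. So do the last 63 bases searched for Anxa2, which hold its TATAAA. S100a1, S100a6 and Anxa5 held none of the 4 motifs. No match overlapped another. Among 32851 RefSeq promoters cut the same way, 12.4% held TATAAA, 9.56% TTGCNNAA, 10.6% GAGGAAG and 6.75% TGANTCA. These matches are descriptions of letters, and binding was not measured.

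To ask how the 10 genes differed between monocytes of the bone marrow and of the spinal cord, these populations, taken at the same stage of disease, were compared. S100a8, S100a9, S100a4 and Anxa1 were called lower in cord monocytes and none of the 10 was called higher. Over all 10072 genes tested, 10.7% were called lower and 13.8% higher. The median log2 fold change was -0.78 for the 10 genes and -0.15 for all genes tested. By the interval alone, 8 of the 10 genes lay below 0, as did 48.5% of all genes tested, and S100a1 and S100a11 had intervals that held 0. In TPM, all 10 genes were lower in the cord monocytes. The median of all genes tested was lower by TPM as well, at -0.37 on the log2 scale with TPM plus 1. S100a1 (-0.19) and S100a11 (-0.29) lay above that median. The share of all genes that was lower in TPM was not counted. None of the 4 calls held when a coefficient of variation of 0.4 between libraries was assumed (0 called lower), and with 0.2 that of S100a4 alone was lost.

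The same question was asked of the Ly6Clow/- APCs against the Ly6Chi monocytes of the spinal cord. None of the 10 genes was called in either direction, where 1.93% of 9734 genes were called higher and 1.7% lower. S100a4 lay at the threshold, at -1.02 on the log2 scale with a 98% interval of -1.10 to -0.94. By the interval alone, 6 of the 10 genes lay below 0 (S100a8, S100a4, S100a6, S100a10, Anxa1 and Anxa2) and 4 above 0 (S100a9, S100a1, S100a11 and Anxa5), where 36.5% and 28.4% of all genes did. Compared with marrow monocytes, APCs had 6 of the 10 genes called lower, which adds S100a6 and Anxa2 to the 4 named above, and none called higher. With the same assumed 0.4, 1 of these 6, S100a8, was still called. Over 10190 genes tested there, 11.8% were called lower and 14.0% higher. By the interval alone, 7 of the 10 genes lay below 0 and 2 above (S100a1 and S100a11), where 49.9% and 34.0% of all genes did. The 3 comparisons share libraries, so the last holds no data beyond those of the other two.

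**Figure D1:**
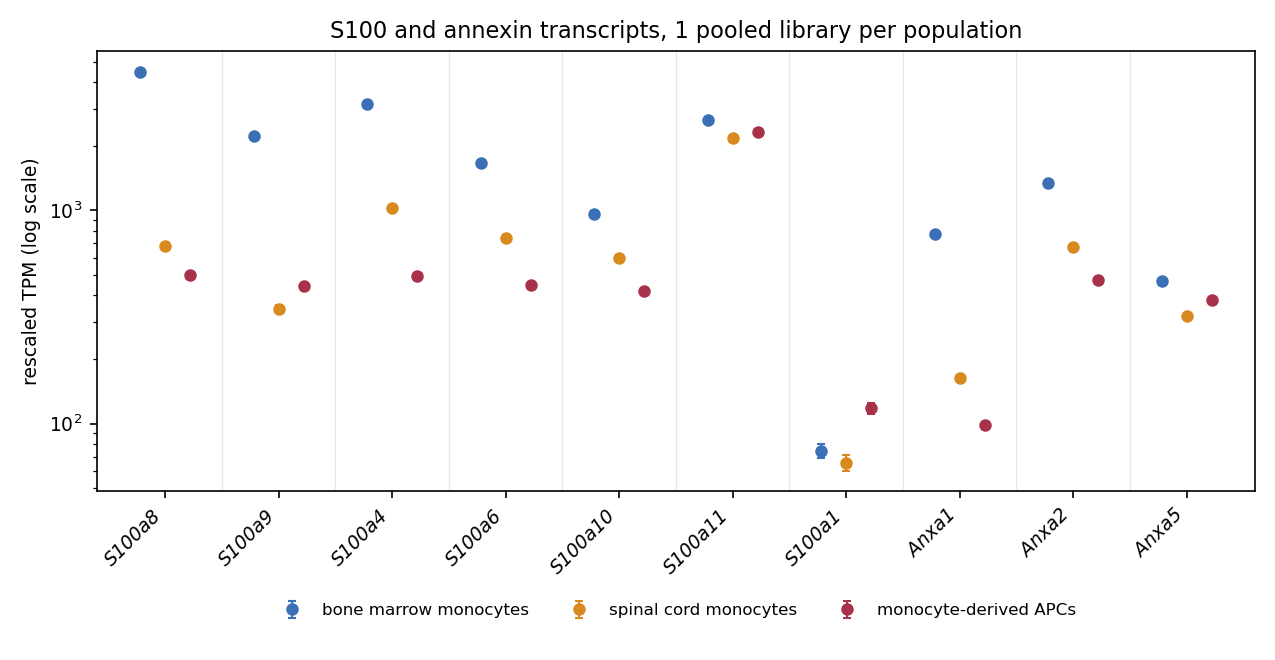
Rescaled TPM (log axis) of the 10 genes in marrow monocytes, cord monocytes and monocyte-derived APCs. Points are single pooled libraries and bars are 95% Wilson intervals, which are mostly smaller than the points. The bone marrow point is the highest for every gene but S100a1, whose APC point, at 118.2 TPM, is above the other two.

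S100a8 had 4471 TPM (95% interval 4414 to 4528) in marrow monocytes, 678.2 (654.8 to 702.5) in cord monocytes and 497.6 (478.9 to 517.0) in APCs. In marrow monocytes it was the gene with the rank 13 by TPM, and in the spinal cord populations it had the ranks 259 and 301. Scaled reads were 5.43-fold lower in cord than in marrow monocytes, which is -2.44 on the log2 scale (98% interval -2.51 to -2.38), and 3.29% of tested genes had a lower value. Between APCs and cord monocytes the log2 fold change was -0.40 (-0.49 to -0.31).

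S100a9, the larger subunit of calprotectin, had 2244 TPM (2206 to 2283) in marrow monocytes, 344.5 (328.7 to 361.1) in cord monocytes and 441.1 (424.3 to 458.6) in APCs. The bone marrow value stood far above the other two, and here APCs were above cord monocytes. The log2 fold change between the monocyte populations was -2.42 (-2.51 to -2.34), close to that of S100a8, and that between APCs and cord monocytes was 0.40 (0.29 to 0.50), the opposite sign of that of S100a8.

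The balance of the calprotectin subunits was set out as a ratio within each library. The ratio of S100a8 to S100a9 in TPM was 1.99 (95% interval 1.95 to 2.04) in marrow monocytes, 1.97 (1.86 to 2.09) in cord monocytes and 1.13 (1.07 to 1.19) in APCs. The intervals of both monocyte populations overlapped and that of APCs lay below them. In reads, without correction for length, the ratios were 1.82, 1.8 and 1.03.

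Neutrophils and their precursors carry large amounts of S100a8 and S100a9 mRNA, so markers of these cells are given beside both genes. Ly6g, the antigen that the gates removed, was under 3 TPM in each library but above the floor of 3 reads. It had 38 reads (2.572 TPM) in marrow monocytes, 22 reads (1.707 TPM) in cord monocytes and 24 reads (1.641 TPM) in APCs. The summed TPM of the 14 neutrophil markers was 2644 in marrow monocytes, 562.5 in cord monocytes and 645.2 in APCs. Of 12 markers tested between the monocyte populations, 7 were called lower in the spinal cord (Mmp8, Camp, Ngp, Ltf, Cd177, Lcn2 and Wfdc21) and 4 higher (Cxcr2, Mmp9, Retnlg and Stfa2l1). All 7 markers of granulocyte precursors were called lower there, with a summed TPM of 736.4 in marrow monocytes, 72.62 in cord monocytes and 26.84 in APCs.

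Between APCs and cord monocytes the neutrophil markers were mixed, with 3 of 12 tested called higher and 1 lower. Ngp, a protein of neutrophil granules, had 185.8 TPM in marrow monocytes, 24.28 in cord monocytes and 156.8 in APCs, and was called higher in APCs at 2.68 on the log2 scale. Ltf, the granule protein lactoferrin, had 27.62, 9.758 and 34.08 TPM and was also called higher, at 2.43. Retnlg was called higher at 1.82, with 1.769, 16.71 and 57.88 TPM. Camp, the granule peptide cathelicidin, had 70.76, 6.372 and 16.84 TPM, and at 1.41 (98% interval 0.92 to 1.92) between APCs and cord monocytes it was not called. Cd177, a surface protein of neutrophils, went the other way with 253.8, 32.49 and 9.032 TPM and was called lower at -1.87. Lcn2, which encodes lipocalin 2, had 1039, 144.0 and 84.68 TPM and Mmp8, neutrophil collagenase, 707.0, 118.8 and 137.5 TPM, and neither was called between APCs and cord monocytes. The part of granulocytes or of their free RNA in the S100a8 and S100a9 values was not tested.

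**Figure D2:**
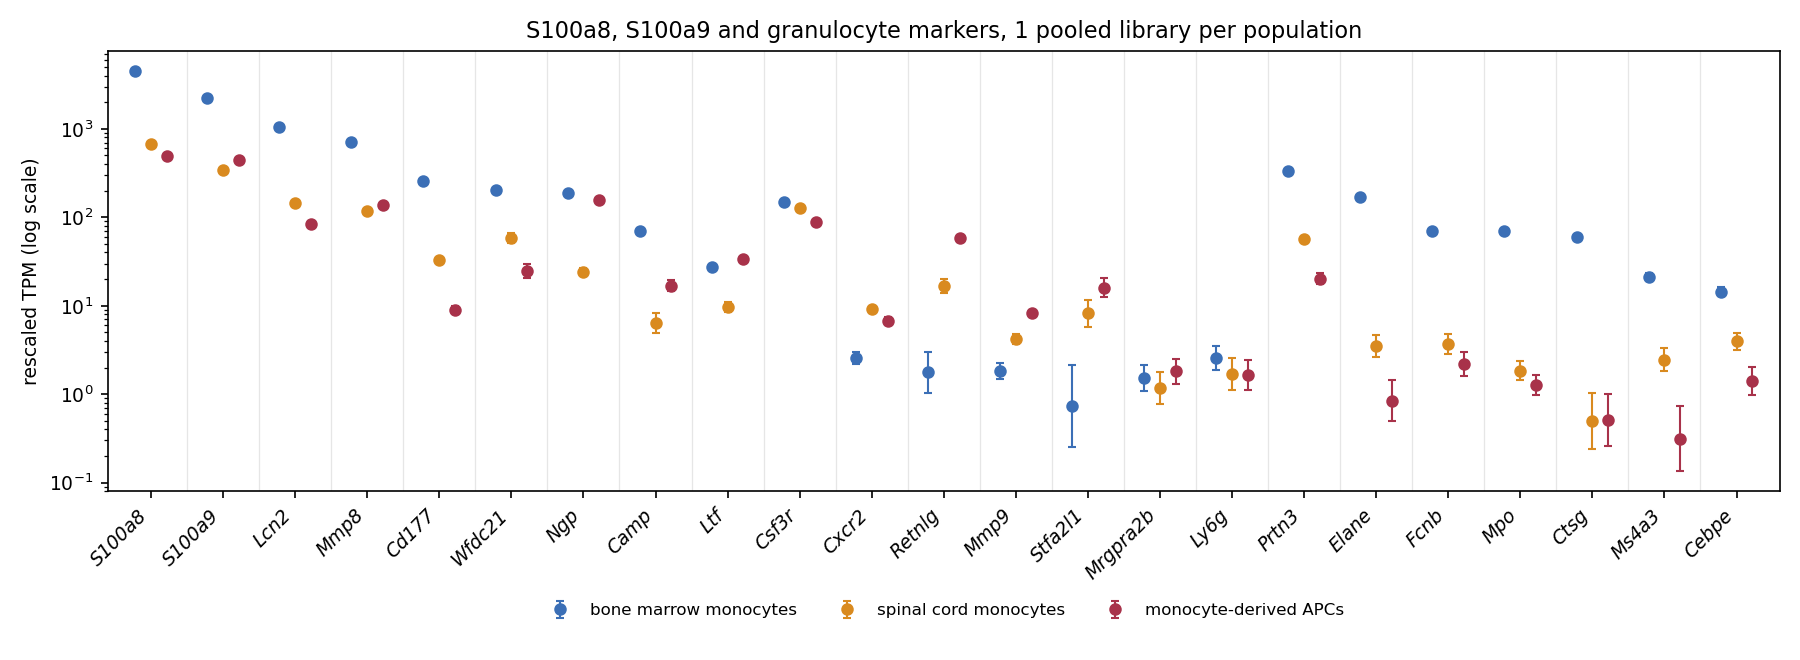
Rescaled TPM (log axis) of S100a8, S100a9, all 14 neutrophil markers (Lcn2 to Ly6g) and all 7 precursor markers (Prtn3 to Cebpe) in the 3 populations. Points are single pooled libraries and bars are 95% Wilson intervals. All 7 precursor markers are highest in marrow monocytes. Of the neutrophil markers, Ltf, Retnlg, Mmp9, Stfa2l1 and Mrgpra2b are highest in APCs, Cxcr2 is highest in cord monocytes, the others are highest in marrow monocytes, and the intervals of Mrgpra2b and of Ly6g overlap across populations.

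Of the other S100 genes, S100a4 had the widest range. S100A4 binds non-muscle myosin and is known for its part in cell motility. It had 3147 TPM (3100 to 3194) in marrow monocytes, 1030 (1002 to 1059) in cord monocytes and 491.8 (473.6 to 510.7) in APCs, so each population was below the one before. The log2 fold change was -1.33 (-1.39 to -1.28) between the monocyte populations and -2.36 (-2.43 to -2.29) between APCs and marrow monocytes. Between APCs and cord monocytes, 2.91% of tested genes had a lower value than S100a4.

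S100a6 encodes calcyclin, which binds Cacybp and Sugt1. It had 1674 TPM (1645 to 1703) in marrow monocytes, 742.6 (722.4 to 763.2) in cord monocytes and 447.9 (432.2 to 464.1) in APCs, in the same order as S100a4. The log2 fold changes were -0.87 (-0.93 to -0.81) and -0.90 (-0.98 to -0.82) for the 2 successive comparisons, neither called, and -1.77 (-1.84 to -1.70) between APCs and marrow monocytes, which was called. Its effective length was 363 bases in marrow monocytes, 353 in cord monocytes and 325 in APCs. Reads per effective length left the difference between the monocyte populations uncalled. TPM put it at -1.17, past the threshold, as did the use of all genes of the monocyte libraries (-1.12).

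S100a10 encodes the small partner of annexin A2, a dimer that does not need calcium. It had 961.6 TPM (941.8 to 981.9) in marrow monocytes, 597.9 (581.2 to 615.0) in cord monocytes and 418.7 (405.7 to 432.2) in APCs. The order was the same again, at smaller steps of -0.40 (-0.46 to -0.34) and -0.49 (-0.56 to -0.41) on the log2 scale.

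S100a11 encodes calgizzarin, a partner of annexin A1. It had 2670 TPM (2628 to 2712) in marrow monocytes, 2179 (2139 to 2221) in cord monocytes and 2324 (2285 to 2364) in APCs. The log2 fold change of scaled reads was -0.01 (-0.06 to 0.03) between the monocyte populations, an interval that holds 0, and 0.13 (0.09 to 0.18) between APCs and cord monocytes. Between APCs and marrow monocytes it was 0.12 (0.08 to 0.16), a sign that turned with TPM (-0.20) and with total reads (-0.02). Its share of the TPM of all S100 genes was 17.4% in marrow monocytes, 38.1% in cord monocytes and 48.3% in APCs.

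S100a1, best known from heart and skeletal muscle, was the least abundant of the 7 S100 genes. It had 74.34 TPM (68.92 to 80.17) in marrow monocytes, 65.08 (59.69 to 70.95) in cord monocytes and 118.2 (111.3 to 125.5) in APCs. The intervals of both monocyte populations overlapped and the APC value stood above them. The log2 fold change was 0.10 (-0.10 to 0.29) between the monocyte populations, with the opposite sign in TPM (-0.19), and 0.89 (0.71 to 1.07) between APCs and cord monocytes. There 95.9% of tested genes had a lower value, and the change was not called. The microglia markers were also higher in APCs, 7 of 8 of them by the call, and their part in the S100a1 value was not tested.

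Anxa1 encodes annexin A1, which is induced by glucocorticoids and acts on formyl peptide receptors. It had 776.1 TPM (765.1 to 787.3) in marrow monocytes, 163.5 (158.1 to 169.0) in cord monocytes and 97.99 (94.49 to 101.6) in APCs. The drop came mostly between the monocyte populations, at -1.96 (-2.03 to -1.90) on the log2 scale, and 4.68% of tested genes had a lower value. Between APCs and cord monocytes it was -0.40 (-0.48 to -0.31) in scaled reads and -0.74 in TPM, since the effective length was 1085 bases in cord monocytes and 1422 in APCs, whose values came from another transcript set.

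Anxa2 encodes annexin A2, which with S100A10 assembles plasminogen and its activator at the cell surface. It had 1345 TPM (1331 to 1360) in marrow monocytes, 670.9 (660.3 to 681.7) in cord monocytes and 470.7 (462.2 to 479.3) in APCs. The log2 fold changes were -0.69 (-0.72 to -0.66) and -0.53 (-0.57 to -0.49), and -1.22 (-1.26 to -1.18) between APCs and marrow monocytes, where it was called lower. In TPM the log2 ratio between the monocyte populations was -1.0, at the threshold, and counted as a call by its point value alone. The ratio of S100a10 to Anxa2 in TPM was 0.715 (0.698 to 0.732) in marrow monocytes, 0.891 (0.863 to 0.921) in cord monocytes and 0.89 (0.858 to 0.923) in APCs. Anxa2 had the larger TPM of the pair in each library.

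Anxa5 encodes annexin A5, which binds phosphatidylserine on dying cells. It had 467.9 TPM (460.2 to 475.6) in marrow monocytes, 320.9 (314.1 to 327.8) in cord monocytes and 378.5 (371.6 to 385.6) in APCs. The log2 fold changes were small, at -0.26 (-0.31 to -0.22) between the monocyte populations and 0.24 (0.19 to 0.29) between APCs and cord monocytes. Between APCs and marrow monocytes the interval held 0, at -0.02 (-0.06 to 0.02).

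**Figure D3:**
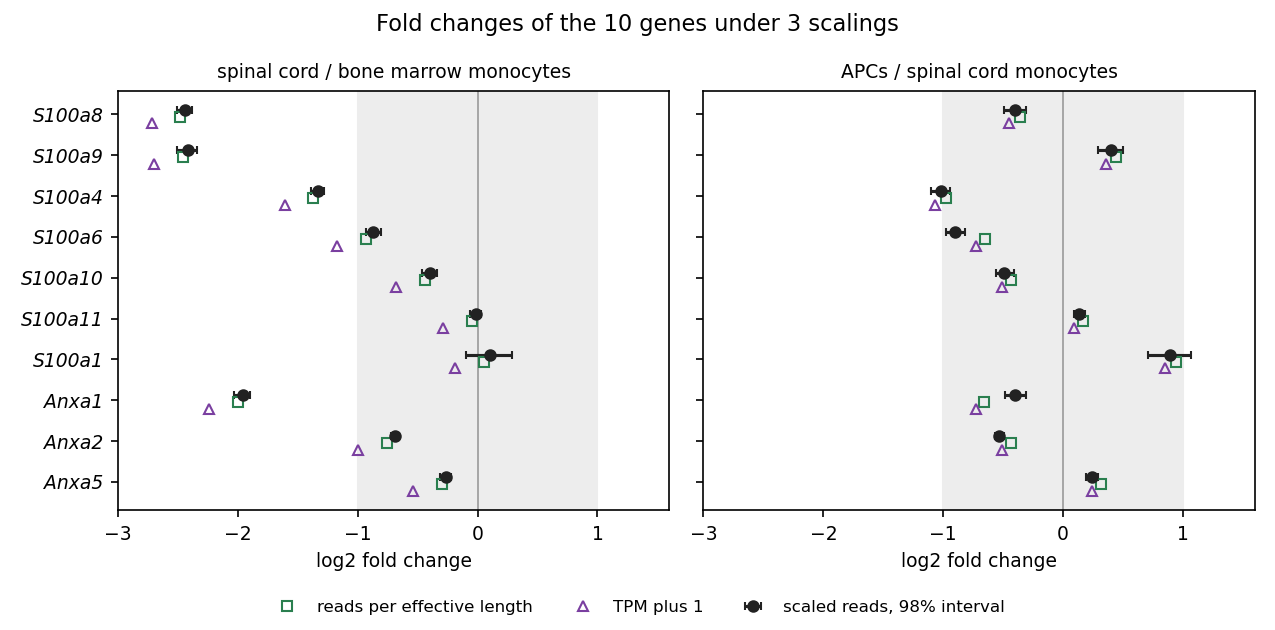
Log2 fold changes of the 10 genes between cord and marrow monocytes (left) and between APCs and cord monocytes (right). Filled points are scaled reads with 98% intervals of counting error, squares reads per effective length, triangles TPM plus 1, and the grey band is a change of less than 2-fold. S100a8, S100a9, S100a4 and Anxa1 lie outside the band on the left by every symbol, S100a6 leaves it there by TPM alone of these symbols (-1.17), Anxa2 lies at its edge by TPM, and TPM lies to the left of scaled reads for all genes on the left.

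The order of the 10 genes by TPM changed between populations. In marrow monocytes it ran S100a8, S100a4, S100a11, S100a9, S100a6, Anxa2, S100a10, Anxa1, Anxa5 and S100a1, and no neighbouring intervals overlapped. In cord monocytes S100a11 and S100a4 led, and S100a8 and Anxa2 had overlapping intervals. In APCs S100a11 led at 2324 TPM, and S100a8 (497.6), S100a4 (491.8), Anxa2 (470.7), S100a6 (447.9), S100a9 (441.1) and S100a10 (418.7) followed so closely that each interval overlapped that of the next.

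The rest of both families served as a comparison. Among the other S100 genes, S100a13 alone passed 3 TPM in any library, with 111.0, 74.3 and 74.04 TPM in marrow monocytes, cord monocytes and APCs, and it was not called. S100b, a marker of astrocytes, had 0 reads in marrow monocytes, 32 in cord monocytes and 33 in APCs, and Gfap, also of astrocytes, had 7, 256 and 185 reads. S100a16 had 0, 35 and 25 reads. S100g and S100z had no reads, which allows up to 0.926 TPM at 3 reads.

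Annexins other than the 3 members went both ways. Anxa3 had 61.73 TPM in marrow monocytes, 166.8 in cord monocytes and 168.2 in APCs, and was called higher between the monocyte populations at 1.75 on the log2 scale. Anxa4, with 63.08, 161.6 and 228.3 TPM, was called higher there at 1.61. Anxa6, with 181.0, 70.7 and 69.38 TPM, was at -1.03 and not called between the monocyte populations, and was called lower between APCs and marrow monocytes at -1.09 (98% interval -1.16 to -1.02). Anxa7 had 82.76, 45.51 and 42.23 TPM and Anxa11 had 103.2, 54.47 and 51.59 TPM, and neither was called. In all, 2 of 6 other annexins tested were called higher and none lower between the monocyte populations, and none of 5 was called between APCs and cord monocytes. The summed TPM of all annexins was 3086, 1657 and 1509. The share of Anxa1 in it was 25.2%, 9.87% and 6.49%, while that of Anxa4 was 2.04%, 9.75% and 15.1%, and Anxa2 held the largest share throughout at 43.6%, 40.5% and 31.2%.

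**Figure D4:**
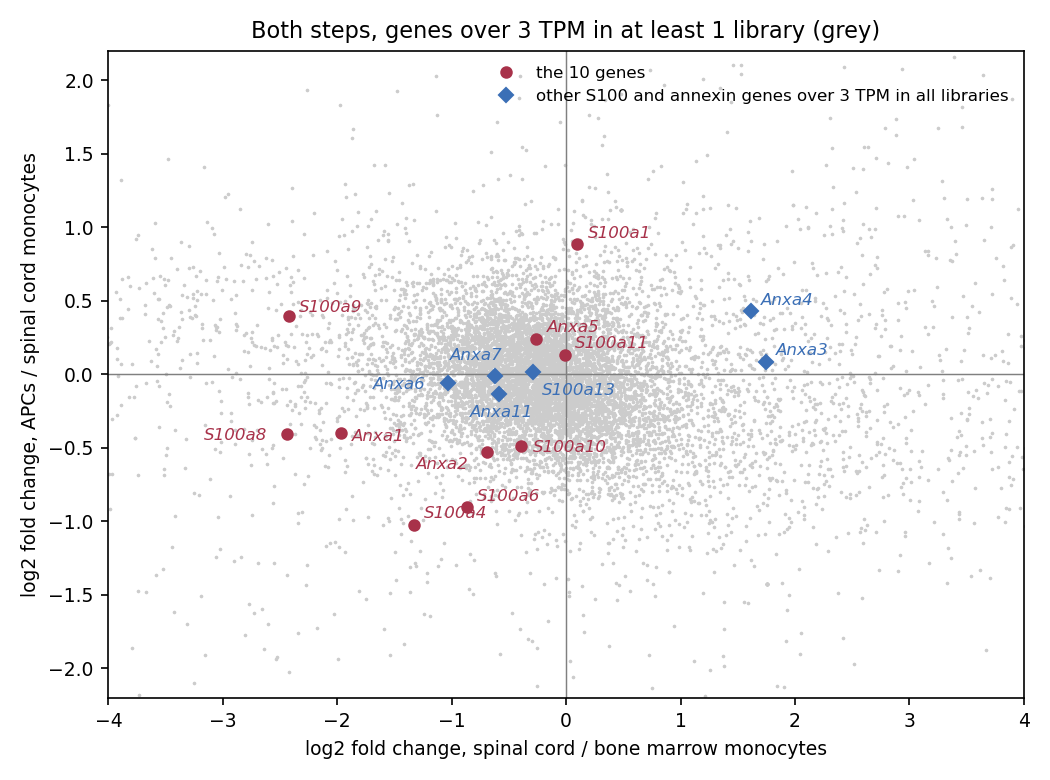
Log2 fold change between cord and marrow monocytes (x axis) against that between APCs and cord monocytes (y axis). Red points are the 10 genes, blue diamonds other S100 and annexin genes over 3 TPM in all libraries, and grey points genes over 3 TPM in at least 1 library, of which 659 of 10307 lie outside the axes. Both axes share the cord monocyte library, so the shape of the cloud is not a result. Anxa3 and Anxa4 lie to the right at 1.75 and 1.61 and S100a8, S100a9, S100a4 and Anxa1 to the left.

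Receptors through which extracellular S100A8 and S100A9 act were listed as well, along with the signalling adaptor Myd88. Of 7 genes tested, 4 were called higher in cord than in marrow monocytes, where 13.8% of all genes were. Cd14, a co-receptor of lipopolysaccharide, had 92.54 TPM in marrow monocytes, 2447 in cord monocytes and 1378 in APCs, with 5.17 on the log2 scale between the monocyte populations. Tlr4, the signalling receptor beside it, had 37.71, 79.61 and 44.84 TPM and was called at 1.30. Bsg, which encodes the receptor basigin, had 221.0, 388.7 and 427.7 TPM and was called at 1.13, and Cd36, a scavenger receptor, had 1.494, 11.66 and 31.47 TPM and was called at 3.08. Cd33, a receptor for sialic acids, was called higher between APCs and marrow monocytes, at 1.16. Ager, the receptor RAGE, had 18, 17 and 12 reads, under 1 TPM in each library. Myd88 (131.0, 107.3 and 61.71 TPM) and Ly96 (37.79, 35.66 and 32.06 TPM) were not called in any comparison. None of the 7 genes tested was called between APCs and cord monocytes.

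Of the formyl peptide receptors, on which annexin A1 acts, Fpr2 had 221.6, 332.2 and 201.0 TPM and Fpr1 33.25, 32.51 and 29.56 TPM, and neither was called in any comparison. Fpr2 differed by 0.86 between the monocyte populations and by -0.72 between APCs and cord monocytes, where the log2 fold changes of Anxa1 were -1.96 and -0.40. The signs were opposite in the former comparison and the same in the latter. The other 5 formyl peptide receptor genes had 3 reads or fewer.

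Of 13 genes whose products bind or act beside these S100 proteins and annexins, 11 were tested between the monocyte populations, with 4 called higher and none lower. These were the plasminogen receptor Plgrkt (39.36, 140.4 and 108.7 TPM, log2 fold change 2.17), the activator urokinase, Plau (9.054, 117.9 and 68.81 TPM, 4.03), its receptor Plaur (131.7, 732.1 and 423.5 TPM, 2.92) and the membrane linker Ezr (66.55, 119.2 and 83.6 TPM, 1.07). Over all genes tested there, 13.8% were called higher. Plat, the other plasminogen activator, had 1, 110 and 161 reads and was under 3 TPM in both monocyte libraries, so it was not tested between them. Ahnak, a large scaffold that binds the S100A10 and annexin A2 complex, had 135.6, 72.23 and 41.71 TPM and was called lower between APCs and marrow monocytes at -1.49. Myh9, the main non-muscle myosin here and a target of S100A4, had 388.0, 215.3 and 241.7 TPM and was not called, and Myh10 was called higher between APCs and cord monocytes, with 2, 220 and 749 reads.

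Genes with the most similar pattern were found by the distance over the 2 log2 fold changes of successive populations, among genes of at least 50 TPM in at least 1 library. Nearest to S100a8 was the cyclin gene Ccnd3 (325.5, 48.06 and 44.15 TPM, at a distance of 0.072), and nearest to S100a9 were Tipin and the chromatin protein gene Hmgb2 (533.1, 82.41 and 110.8 TPM, at 0.162). S100a4 was followed by Ptpro, Mrpl33 and the actin-binding Coro1a (1910, 569.3 and 282.0 TPM, at 0.12). Nearest to Anxa1 was Flna, which encodes the actin cross-linker filamin A (876.3, 209.9 and 192.7 TPM, at 0.096). Nearest to S100a6 was Adgre5, to S100a10 Phf5a, to S100a11 Hnrnpc, to S100a1 Man2b2, to Anxa2 Palm and to Anxa5 Ube2r2. With 3 libraries such likeness rests on 2 values per gene.

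Reads assigned to close copies were few. How many reads fit a member and its copy alike was not counted. Only S100a4 and S100a11 matched another gene at 95% identity or more over at least 100 bases. S100a4 shares exon sequence with Gm42674, which was given 1.4 reads in marrow monocytes. S100a11 has the processed pseudogenes Gm7665 and Gm12854, each of which held at most 2.1 reads in either monocyte library and are not among the genes of the APC values. An antisense gene, Gm16144, overlaps an exon of Anxa2 and had 0 reads in both monocyte libraries.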

How the data were processed

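RNA of 3 sorted populations was sequenced as 1 pooled library each. The authors estimated expression with Salmon 0.14.1 on GENCODE vM22 (mm10) and deposited, per gene, estimated counts (not normalized), TPM (normalized for effective length and library size) and lengths. With 54432 genes listed for either monocyte library and 22242 for APCs, a different set of transcripts lay behind the latter. How that set was made is not given in the sources used here.

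The 22238 common genes were compared, and TPM was rescaled over them (84.9%, 85.3% and 100.0% of deposited TPM). Median-of-ratios size factors for the rounded reads were 1.205, 0.863 and 0.962. The log2 ratio had a posterior from gamma distributions of reads plus 1. A gene was called where its percentile 1 or 99 lay beyond 2-fold with either library over 3 TPM, after the GFold definition in the study's methods. The study's methods put active expression at a threshold of 2 on log2 TPM, taken here on TPM plus 1 and so as 3 TPM. Whether the study added 1 is not given in the sources used here, and 4 TPM was an alternative. The procedure was tested on simulated data that held counting error only. With no spread between libraries built in, that test cannot show how calls behave under such a spread. Symbols and positions came from GENCODE M21 (GRCm38), in which 99.0% of identifiers had the same version, and promoters from RefSeq (GRCm38.p6), with none for S100a10.

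The members and lists were chosen with earlier results of these data known. Named besides the members were the genes of each list that were called or among the most abundant, the 3 genes nearest to each member, and S100 neighbours on the chromosome. Gfap, Slc1a2, Aqp4, S100b, S100a16 and S100a2 were named after their values were seen. Alternatives were TMM factors (edgeR 4.0.16, R 4.3.3) or total reads, effective lengths, TPM, other thresholds, bounds and prior reads, an assumed spread between libraries, and all genes of the monocyte libraries. Software was matplotlib 3.10.9, scipy 1.17.1, pandas 2.3.3 and numpy 2.4.6 under Python 3.11.15.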

Additional observations from a re-analysis of the deposited data

Results flagged for a closer look

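Anxa11os, an antisense transcript of the Anxa11 locus that is not among the genes of the APC values, had 4 reads in spinal cord monocytes and 0 in bone marrow monocytes. It is given because 4 is over the floor of 3 reads and no comparison above includes it. The exact Poisson 95% interval of 4 reads, 1.09 to 10.2, reaches below that floor, so no signal is shown.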

How the results depend on the processing

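No paired analysis was possible because each population was a single library, and for the same reason no library could be left out. Over the 10 genes, 3 comparisons and all alternatives, 367 of 400 fold changes kept their direction and side of the threshold, 12 crossed into a call, 12 lost one and 9 changed sign. Between spinal cord and bone marrow monocytes, S100a1 (0.10) was at -0.09 with total reads, -0.19 with TPM plus 1 or plus 0.1, -0.18 with TPM as deposited and -0.15 over all genes of the monocyte libraries. Between APCs and bone marrow monocytes, S100a11 (0.12) was at -0.02 with total reads and -0.20 with TPM plus 1 or plus 0.1, and Anxa5 (-0.02) was at 0.02 with effective lengths. The median of all tested genes between the monocyte populations was -0.15 with size factors, -0.33 with total reads and -0.37 with TPM plus 1.

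The number of members called lower between the monocyte populations fell from 4 to 0 with an assumed coefficient of variation of 0.4 between libraries, and that between APCs and bone marrow monocytes from 6 to 1 (S100a8). With 0.2, S100a4 lost its call in the former, and S100a6 and Anxa2 in the latter. Between APCs and spinal cord monocytes, 1 member was called lower with a plain 2-fold change or with TPM plus 1 or plus 0.1 (S100a4), and 1 higher with TPM as deposited (S100a1, 1.08). In TPM, S100a6 (-1.17) and Anxa2 (-1.0) were also called lower between the monocyte populations, and S100a10 (-1.20) between APCs and bone marrow monocytes. Calls in TPM rest on the point value, and Anxa2 lay at the threshold.

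Over all genes, calls between the monocyte populations were 2623 higher without a TPM threshold, 910 higher and 445 lower with an assumed 0.2, 622 and 218 with 0.4, and 1890, 2137 and 1802 lower with TPM plus 1, plus 0.1 or as deposited. Between APCs and spinal cord monocytes they were 385 higher and 292 lower without a threshold, 326 and 302 with a plain 2-fold change, 83 and 35 with 0.2, 41 and 14 with 0.4, 351 and 617 with TPM plus 0.1, 431 and 294 with TPM as deposited, 528 lower with TPM plus 1 and 320 lower with effective lengths. Between APCs and bone marrow monocytes they were 2870 higher without a threshold, 488 lower with 0.2, 714 and 222 with 0.4, and 2433 and 2682 lower with TPM plus 1 and plus 0.1. The cause of these differences was not tested. The smallest count of a member in a library was 514 reads, of S100a1 in spinal cord monocytes.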
